A study of Mus musculus with 20 samples.

Results

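Selenoproteins carry selenocysteine, the amino acid that holds selenium. The 10 genes described here are Selenop, Gpx1, Gpx4, Txnrd1, Txnrd2, Selenow, Selenot, Selenok, Selenom and Selenof. They were chosen by name, as selenoprotein genes with a row in a count table of 18054 genes, and the rule uses no measured value. All 10 had a row, and all 10 passed the filter on low counts in footprints and in input RNA. The table holds hippocampus of Qtrt1-/- mice, called knockout here, and of wild-type mice. The Qtrt1 product is the catalytic member of a tRNA transglycosylase, which exchanges a guanine base for queuine. This gives the nucleoside queuosine in the anticodons that read asparagine, aspartate, histidine and tyrosine codons. Each of 10 animals gave 1 library of ribosome footprints, the mRNA pieces that ribosomes shield from nuclease, and 1 library of input RNA from the same lysate. The groups were 3 knockout females, 3 wild-type females, 2 knockout males and 2 wild-type males. Females were 6 months and 21 or 22 days old. In both genotypes male 1 was 6 months and 18 days old and male 2 was 5 months and 16 days old, so sex and age differ together. The labels name no strain and no treatment.

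Selenocysteine is inserted at UGA, which in most mRNAs ends translation. A stem-loop in the mRNA's untranslated end, the SECIS element, recruits a binding protein and a dedicated elongation factor that bring the selenocysteine tRNA to that UGA. That tRNA is not among the tRNAs that carry queuosine. Reading UGA as selenocysteine competes with termination and depends on selenium supply, and the brain holds on to selenium when the rest of the body runs short.

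Totals ran from 5357812 to 15517982 counts in footprint libraries and from 9000662 to 13637370 in input libraries. Qtrt1 itself had 1 to 10 footprint counts in knockout libraries and 28 to 94 in wild-type libraries. Its input counts were 24 to 29 in knockout libraries and 66 to 88 in wild-type libraries. All 8 hippocampal neuron markers were read, and their summed footprint level was 1120 to 1340 CPM (counts scaled to the library total) in knockout animals and 704 to 1170 CPM in wild-type animals. Some libraries stood apart in markers of neighbouring tissue. The summed footprint level of 12 choroid plexus markers was 13600, 10500 and 3610 CPM in knockout females 1, 2 and 3, against 785, 963 and 8310 CPM in wild-type females 1, 2 and 3. In males it was 16700 and 12000 CPM in knockouts and 14300 and 14800 CPM in wild types, and no marker of the list was at 0. Wild-type females 1 and 2 were thus far below the other animals. Calls between female genotypes in each assay and the sex difference in footprints are given below also without them. So are the female ratios, but only in the fit that leaves the animal out of the model.

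The place of the UGA differs among the 10 genes, and with it the share of the coding sequence that a ribosome reaches only after reading UGA. The sequences are shown for genes whose values the results turn on and for examples of a UGA near the end. They come from GRCm38 with the GENCODE M21 annotation, on the coding strand from 5′ to 3′. Capitals mark the selenocysteine codon, with 10 codons before it and up to 10 after it. Codons are numbered from 1 at the start codon.
Selenop: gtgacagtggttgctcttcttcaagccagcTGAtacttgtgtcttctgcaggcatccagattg
Selenof: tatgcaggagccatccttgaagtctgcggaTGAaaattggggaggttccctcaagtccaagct
Selenom: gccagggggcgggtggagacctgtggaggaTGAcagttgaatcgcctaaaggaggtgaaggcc
Selenot: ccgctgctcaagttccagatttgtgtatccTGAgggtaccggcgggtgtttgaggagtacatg
Selenok: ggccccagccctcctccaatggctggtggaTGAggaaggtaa
Txnrd1: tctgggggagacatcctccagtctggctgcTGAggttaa
Selenop lies on chromosome 15, plus strand, and Selenof and Selenot lie on chromosome 3, plus strand. Selenom is on chromosome 11, Selenok on chromosome 14 and Txnrd1 on chromosome 10, all on the plus strand. Selenop is the only one of the 10 with more than 1 such codon. It has 10, at codons 59, 259, 277, 318, 330, 352, 366, 368, 375 and 377 of 380, and the first is shown. In Txnrd1 and Txnrd2 the UGA is the last codon but 1 (codon 498 of 499 and codon 526 of 527), in Selenok it is codon 92 of 94, and in these 3 genes nearly the whole coding sequence precedes it. In the other 7 genes between 42.6% and 85.2% of the codons follow the first UGA. The base after UGA is G in 7 of the genes, T in Selenop, A in Selenof and C in Selenom.

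In wild-type hippocampus the 10 mRNAs spanned a wide range of levels per length of coding sequence. Only the coding length was divided out, and whether the counts include reads outside the coding sequence is not given. The order of the members, and of their ratios below, may depend on that. Selenow, a small protein with a thioredoxin fold, led in both assays, with 1130 ± 104 CPM per coding kilobase in footprints and 1350 ± 135 in input RNA (SD, n = 5). In footprints Selenof followed with 415 ± 255, then Gpx4 with 141 ± 30, Selenop with 127 ± 57.6, Gpx1 with 76.2 ± 10.5, Txnrd1 with 71.5 ± 20.5, Selenom with 65.9 ± 11.4 and Selenot with 50.1 ± 7.19 CPM per kilobase. Selenok had 32.5 ± 6.47 and Txnrd2 had 5.36 ± 0.526. From Gpx4 down to Selenot the ranges of neighbours in this order overlapped. In input RNA the order after Selenow was Selenop (263 ± 24.1), Selenof (211 ± 37.9), Selenot (194 ± 27.9), Gpx4 (140 ± 29.5), Gpx1 (130 ± 13.9), Selenom (103 ± 21.6), Selenok (85.3 ± 3.74), Txnrd1 (49.5 ± 2.58) and Txnrd2 (4.19 ± 0.687), and neighbours from Selenop down to Selenok overlapped.

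The footprint level divided by the input level, called the ratio below, differed widely among the members in wild-type animals. The ratio is relative, since normalization centres both assays on the average gene. By edgeR's quasi-likelihood test on the 20 libraries, 3 members lay above that average, 5 lay below it, and 2 did not pass. Over all genes 75.3% of 14146 were called, 37% as higher and 38.3% as lower. The 3 high ones were Selenof (log2 difference 1.12 ± 0.16, standard error), Txnrd1 (0.76 ± 0.07) and Txnrd2 (0.53 ± 0.15), with adjusted p of 2.24e-06, 6.53e-09 and 0.00362. The 5 low ones were Selenot (−1.74 ± 0.07), Selenok (−1.17 ± 0.16), Selenop (−0.86 ± 0.07), Gpx1 (−0.56 ± 0.08) and Selenom (−0.44 ± 0.11), with edgeR adjusted p between 3.75e-14 and 0.00109. Selenow (−0.08 ± 0.10, adjusted p = 0.447) and Gpx4 (0.22 ± 0.10, adjusted p = 0.0549) did not pass. With the animal as a block Gpx4 passed as well (adjusted p = 0.01). Both thioredoxin reductases, with UGA at the end of the coding sequence, were in the high group, while Selenok, also with a late UGA, was in the low group.

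**Figure D1:**
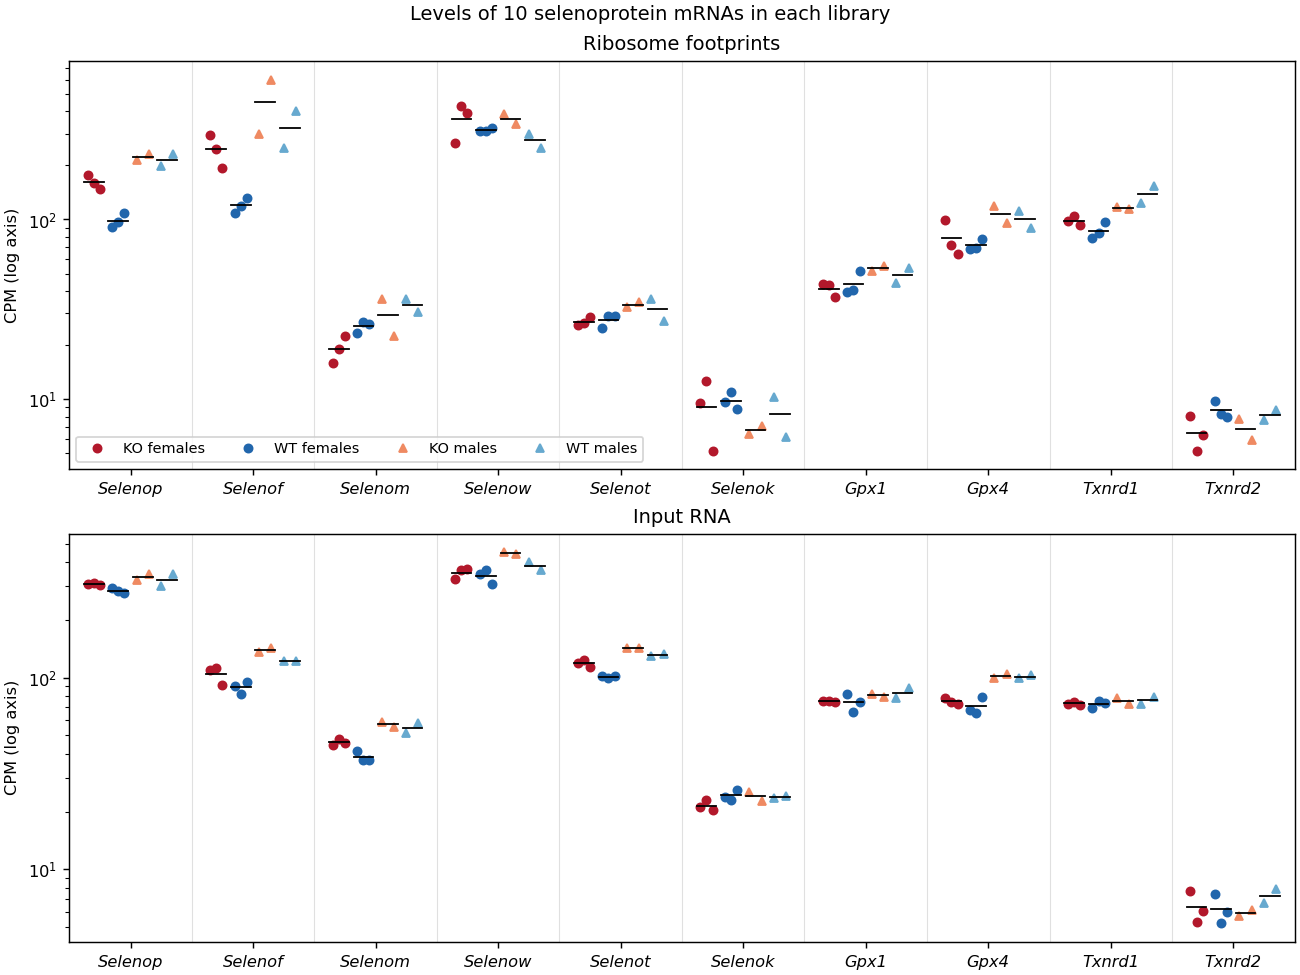
Levels of the 10 selenoprotein mRNAs in every library, as CPM on a log axis, footprints and input RNA in separate panels, knockout left of wild type within each sex. Each point is 1 animal and short lines are group means. In females the 3 knockout points lie above the 3 wild-type points for Selenop and Selenof in footprints, and the male points overlap for both genes.

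Selenop and Selenof had more footprints in knockout than in wild-type females, and the other 8 members did not pass the test. Selenop is the secreted selenium carrier, which delivers selenium to neurons through the receptor Lrp8. Its footprint level was 177, 159 and 148 CPM in knockout females, against 90.5, 96.5 and 108 CPM in wild-type females. Every knockout female lay above every wild-type female. The log2 difference was 0.71 ± 0.11, a 1.64-fold higher level (edgeR, adjusted p = 0.00867). In this comparison 7.06% of 13143 genes were called, 2.81% as higher and 4.25% as lower, against 2 of the 10 members.

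Selenof is a thioredoxin-like protein of the endoplasmic reticulum that works with the glycoprotein folding sensor UGGT. Its footprint level was 294, 248 and 194 CPM in knockout females, against 109, 119 and 131 CPM in wild-type females, again without overlap. The log2 difference was 1.03 ± 0.23, a 2.04-fold higher level (edgeR, adjusted p = 0.0231). Selenop footprints passed without each of 9 animals in turn and missed the threshold without knockout female 1 (0.64 ± 0.12, adjusted p = 0.0513). Selenof missed it without knockout female 1 (0.88 ± 0.25, adjusted p = 0.111), knockout female 2 (1.02 ± 0.27, adjusted p = 0.0712) or wild-type female 1 (0.97 ± 0.28, adjusted p = 0.103).

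Levels of choroid plexus markers moved with both genes. All 12 choroid plexus markers had higher fitted footprint levels in knockout than in wild-type females (median log2 difference 1.51), and 1 of them was called. All 9 meningeal fibroblast markers did too (median 1.04), with 4 called, and the 9 striatum markers were lower (median −1.36, 2 called). All 8 hippocampal neuron markers were higher in knockout females (median 0.54, 1 called). Of 8 astrocyte markers 2 were called higher (median 0.06), and of 8 oligodendrocyte markers 1 was called higher (median −0.16). With the choroid plexus level as a covariate Selenop differed by 0.56 ± 0.15 (edgeR, adjusted p = 0.119) and Selenof by 0.82 ± 0.33 (adjusted p = 0.286), and neither passed. Without wild-type females 1 and 2 the differences were 0.61 ± 0.17 and 0.93 ± 0.36, and that fit rests on 1 wild-type female. In that animal, wild-type female 3, the summed footprint level of the 9 striatum markers was 1020 CPM. It was 285, 618 and 203 CPM in knockout females 1, 2 and 3. The hippocampal neuron marker sum of wild-type female 3, 704 CPM, was the lowest of the 10 animals. In every pairing of a knockout with a wild-type female both genes had more footprints in the knockout. The choroid plexus sum was also higher in the knockout in every pairing except that of the 2 animals numbered 3. The choroid plexus sum was 3610 CPM in knockout female 3 against 8310 CPM in wild-type female 3. Selenop was at 148 CPM in knockout female 3 and 108 CPM in wild-type female 3. Selenof was at 194 CPM in knockout female 3 and 131 CPM in wild-type female 3. The part of neighbouring tissue in the difference between genotypes was not tested beyond these values. In whole tissue, fewer cells of a type and less RNA per cell cannot be told apart.

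**Figure D2:**
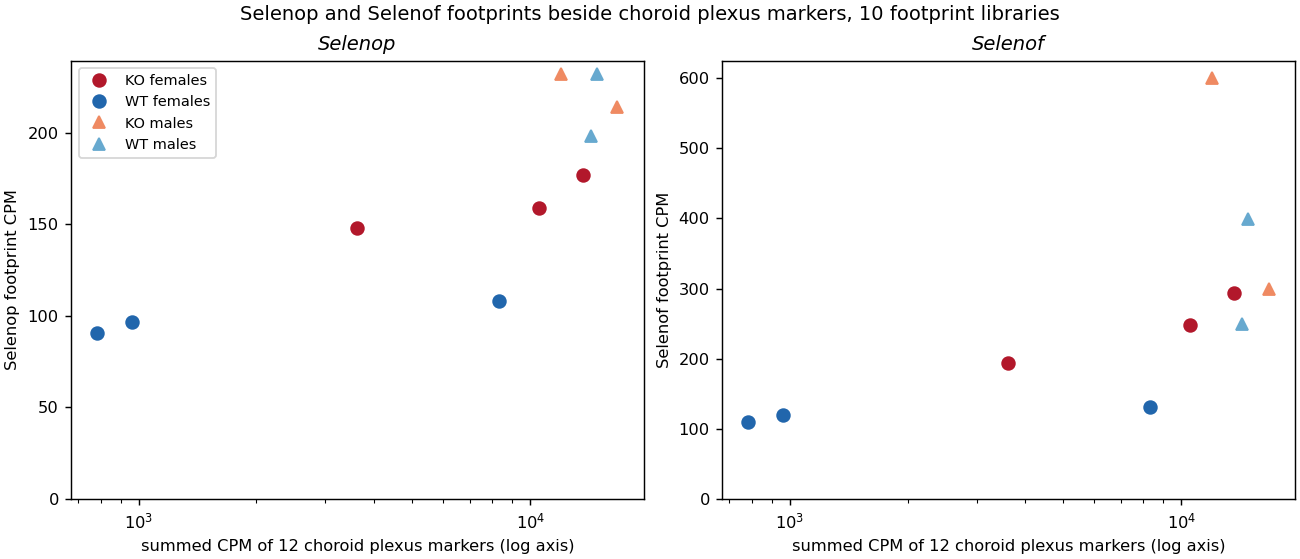
Footprint level of Selenop and of Selenof in CPM against the summed CPM of 12 choroid plexus markers on a log axis, 1 point per animal, knockout and wild type in separate colours. The wild-type females 1 and 2 lie at the left with 785 and 963 CPM of marker sum. Each knockout female has more Selenop and Selenof footprints than each wild-type female. Knockout female 3 has less marker sum than wild-type female 3, and in all other pairings of females the knockout has more.

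In males neither gene passed the test. Selenop footprints were 214 and 232 CPM in knockout males and 198 and 232 CPM in wild-type males, and the log2 difference was 0.05 ± 0.13 (edgeR, adjusted p = 0.976). Selenof footprints were 300 and 600 CPM in knockout males and 249 and 399 CPM in wild-type males, a difference of 0.47 ± 0.28 (adjusted p = 0.963). The 2 younger males, number 2 of each genotype, had the higher Selenof level. No gene of the table was called in male footprints (0%), not even Qtrt1 (−2.88 ± 0.46, edgeR adjusted p = 0.23). A male difference that did not pass is therefore not shown to be absent. Among the members 1, Selenow, had an unadjusted p under 0.05. The difference between the sexes was itself tested. For Selenop the female difference exceeded the male one by 0.66 ± 0.17, with an unadjusted p of 0.00175 and an edgeR adjusted p of 0.319. For Selenof it was 0.56 (adjusted p = 0.725). Neither passed, and DESeq2 called no member there either. With both sexes together Selenop differed by 0.38 ± 0.09 (adjusted p = 0.0626) and Selenof by 0.75 ± 0.18 (adjusted p = 0.0678), where 0.00761% of genes were called.

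The other members of the endoplasmic reticulum did not pass the test in footprints. Selenom, a thioredoxin-like protein with high levels in brain, had 15.9, 18.9 and 22.6 CPM of footprints in knockout females, against 23.4, 26.8 and 26.3 CPM in wild-type females. All 3 knockout values lay below the wild-type values, but the log2 difference of −0.41 ± 0.18 did not pass (edgeR, adjusted p = 0.169). In males Selenom was at 36.0 and 22.6 CPM in knockouts and 36.3 and 30.7 CPM in wild types, with overlap. Of all genes tested, 35% had non-overlapping footprint levels between the female genotypes and 26.6% between the male genotypes, against 3 of 10 members (Selenop, Selenof and Selenom) in females and 2 of 10 (Selenow and Txnrd1) in males.

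Selenot, a membrane-bound thioredoxin-like protein, had 25.8, 26.4 and 28.6 CPM of footprints in knockout females, against 24.8, 28.9 and 29.1 CPM in wild-type females. Selenok, a membrane protein that aids protein palmitoylation, had 9.49, 12.6 and 5.16 CPM in knockout females, against 9.65, 10.9 and 8.85 CPM in wild-type females. Both sets overlapped, and the differences were −0.04 ± 0.13 and −0.12 ± 0.28 (edgeR adjusted p = 0.896 and 0.826). Male levels overlapped too, at 32.4 and 34.8 CPM of Selenot in knockouts and 36.2 and 27.4 CPM in wild types, and at 6.42 and 7.08 CPM of Selenok in knockouts and 10.3 and 6.17 CPM in wild types. Selenok and Txnrd2 were the least deeply read members, with 34 to 166 and 36 to 124 footprint counts per library. The mouse annotation also holds pseudogenes of Selenok, Selenot and Gpx4, which could share reads with them.

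Selenow is the member with the most input RNA per coding kilobase. Its footprints were 266, 427 and 389 CPM in knockout females, against 310, 311 and 322 CPM in wild-type females, with overlap. In males both knockout values, 388 and 338 CPM, exceeded the wild-type values of 300 and 251 CPM. The difference was 0.20 ± 0.14 in females (edgeR, adjusted p = 0.417) and 0.39 ± 0.18 in males (unadjusted p = 0.0446, adjusted p = 0.963), and neither passed.

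Neither glutathione peroxidase passed the test between genotypes. Gpx1, which reduces hydrogen peroxide, had 43.6, 43.1 and 36.8 CPM of footprints in knockout females, against 39.7, 40.6 and 51.6 CPM in wild-type females. Gpx4, which reduces lipid hydroperoxides in membranes and protects from ferroptosis, had 98.9, 72.4 and 64.1 CPM in knockout females, against 68.3, 69.2 and 78.3 CPM in wild-type females. Both overlapped, with differences of −0.10 ± 0.13 and 0.12 ± 0.15 (edgeR adjusted p = 0.678 and 0.663). In males Gpx1 was at 51.9 and 54.9 CPM in knockouts and 44.1 and 53.6 CPM in wild types, and Gpx4 at 119 and 95.2 CPM in knockouts and 111 and 89.9 CPM in wild types.

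The thioredoxin reductases keep thioredoxin reduced, Txnrd1 in the cytosol and Txnrd2 in mitochondria. Txnrd1 footprints were 97.6, 105 and 92.8 CPM in knockout females, against 78.7, 84.2 and 96.6 CPM in wild-type females. In males they were 118 and 115 CPM in knockouts, against 123 and 153 CPM in wild types. The difference was 0.18 ± 0.12 in females (edgeR, adjusted p = 0.338) and −0.25 ± 0.14 in males (adjusted p = 0.963). The female difference minus the male difference was 0.43 (unadjusted p = 0.0315, adjusted p = 0.563) and did not pass. Txnrd2 footprints were 8.03, 5.18 and 6.28 CPM in knockout females, against 9.80, 8.23 and 7.99 CPM in wild-type females, and the difference of −0.42 ± 0.21 did not pass (adjusted p = 0.224). In males Txnrd2 footprints overlapped, at 7.71 and 5.93 CPM in knockouts and 7.67 and 8.72 CPM in wild types. Over the 10 members the median female footprint difference was 0.042, against 0.003 over all genes.

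**Figure D3:**
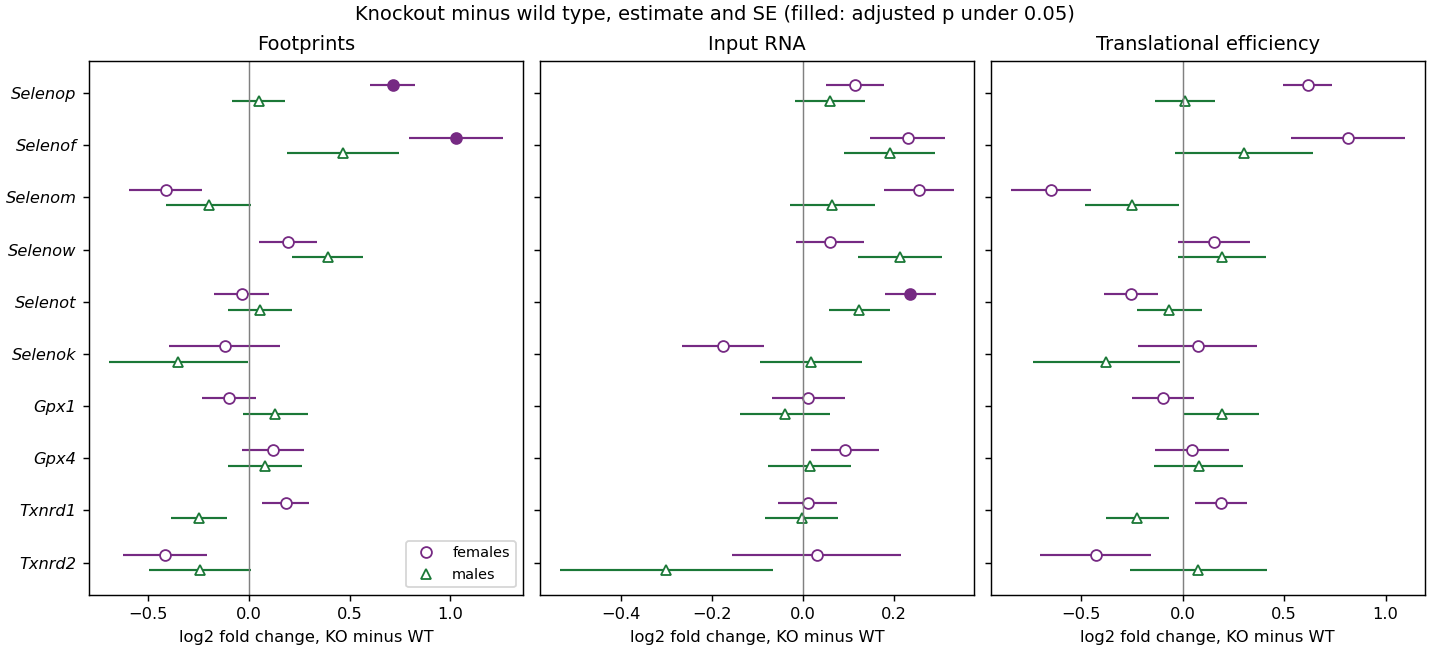
Log2 differences, knockout minus wild type, of the 10 members in females and males, for footprints, input RNA and translational efficiency, which is the footprint to input ratio tested without the animal block. Points are edgeR estimates and bars are standard errors, and filled points have an adjusted p under 0.05. Filled points are Selenop and Selenof in female footprints and Selenot in female input RNA.

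In input RNA of females 1 member, Selenot, was higher in knockouts, where 3.48% of 14164 genes were called, 0.748% as higher and 2.73% as lower. Selenot was at 120, 124 and 114 CPM in knockout females, against 102, 100 and 102 CPM in wild-type females, without overlap. The log2 difference was 0.24 ± 0.06 (edgeR, adjusted p = 0.0402). With 1 animal left out the call held in the fits that lacked wild-type male 1 or 2. Leaving out any of the other 8 animals ended it, with adjusted p between 0.0518 (wild-type female 2) and 0.15 (knockout female 1), at differences of 0.21 to 0.27. With the choroid plexus level as a covariate the difference was 0.21 ± 0.08 (adjusted p = 0.243), and without wild-type females 1 and 2 it was 0.23 ± 0.09 (adjusted p = 0.205). In males Selenot was at 143 and 143 CPM in knockouts and 129 and 133 CPM in wild types (0.12 ± 0.07, adjusted p = 0.624).

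Neither gene with changed footprints passed the test in input RNA. Selenop was at 310, 314 and 303 CPM in knockout females, against 294, 285 and 276 CPM in wild-type females (0.11 ± 0.06, edgeR adjusted p = 0.34). Selenof was at 110, 113 and 91.8 CPM in knockout females, against 90.4, 82.4 and 95.4 CPM in wild-type females (0.23 ± 0.08, adjusted p = 0.144). Selenop lay higher in every knockout female, whereas Selenof overlapped. Selenom, with fewer footprints in each knockout female, had more input RNA in each, at 44.6, 47.7 and 45.6 CPM in knockout females against 41.4, 37.0 and 37.0 CPM in wild-type females (0.26 ± 0.08, adjusted p = 0.089). Selenok lay lower, at 21.0, 23.0 and 20.4 CPM in knockout females against 23.9, 23.1 and 25.8 CPM in wild-type females (−0.18 ± 0.09, adjusted p = 0.298).

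The remaining 5 members differed by at most 0.09 in female input RNA, and none passed. In males no gene of the table was called in input RNA (0%), not even Qtrt1 (−1.26 ± 0.22, edgeR adjusted p = 0.373). The 1 member that passed 0.05 before adjustment there was Selenow. Its log2 difference was 0.21 ± 0.09 (edgeR, adjusted p = 0.555). It had 452 and 440 CPM in knockout males and 403 and 366 CPM in wild-type males. With both sexes together none of the 10 was called, against 0.734% of all genes, of which 0.0918% as higher and 0.642% as lower, and 4 members at an unadjusted p under 0.05. Selenot came nearest (0.18 ± 0.04, adjusted p = 0.074). Input levels did not overlap between the female genotypes for 4 members (Selenop, Selenom, Selenot and Selenok), against 25.1% of genes. Between the male genotypes they did not overlap for 4 members (Selenow, Selenot, Selenof and Txnrd2), against 37.8% of genes.

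**Figure D4:**
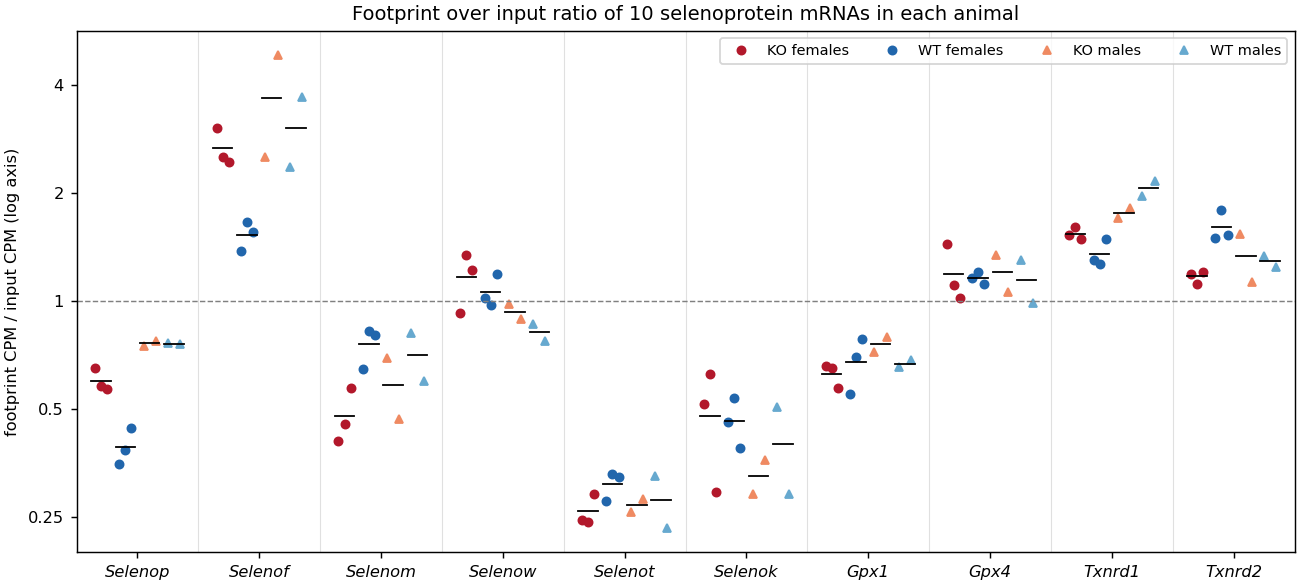
Footprint level over input level of the 10 members in every animal, on a log axis, knockout left of wild type within each sex, with group means as short lines. In females the knockout points lie above the wild-type points for Selenop and Selenof and below them for Selenom and Txnrd2.

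The footprint to input ratio sets the 2 assays of an animal side by side. For Selenop it was 0.652, 0.582 and 0.569 in knockout females, against 0.352, 0.386 and 0.443 in wild-type females. In males it was 0.752 and 0.774 in knockouts and 0.767 and 0.758 in wild types. Knockout females thus lay between wild-type females and both groups of males. For Selenof the ratio was 3.04, 2.53 and 2.45 in knockout females, against 1.38, 1.66 and 1.56 in wild-type females. In males it was 2.53 and 4.86 in knockouts, against 2.37 and 3.70 in wild types.

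For Selenom the order was turned round, with 0.408, 0.455 and 0.574 in knockout females against 0.648, 0.827 and 0.805 in wild-type females. Male values of Selenom overlapped, at 0.697 and 0.471 in knockouts and 0.817 and 0.599 in wild types. For Txnrd2 it was 1.19, 1.12 and 1.21 in knockout females, against 1.5, 1.8 and 1.53 in wild-type females, also without overlap. Between the female genotypes 4 members did not overlap, against 28.9% of genes, and between the male genotypes 3 did not (Gpx1, Selenow and Txnrd1), against 26.9%.

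The test of the ratio depended on whether the animal was part of the model. Without it, as planned, no member passed in females, at a background of 0.0424% of genes called and with 3 members at an unadjusted p under 0.05. The log2 differences were 0.62 ± 0.12 for Selenop (edgeR, adjusted p = 0.0755), 0.81 ± 0.28 for Selenof (adjusted p = 0.238) and −0.65 ± 0.20 for Selenom (adjusted p = 0.189). DESeq2 called Selenop alone (0.61 ± 0.13, adjusted p = 0.00276). The footprint and input libraries of 1 animal come from the same lysate, and with the animal as a block all 3 passed, where 2.79% of genes were called, 1.34% as higher and 1.45% as lower. Selenop then differed by 0.61 ± 0.10 (adjusted p = 0.00302), Selenof by 0.80 ± 0.17 (adjusted p = 0.0169) and Selenom by −0.66 ± 0.17 (adjusted p = 0.0393). Without the block, Selenop also passed without wild-type male 1 (0.62 ± 0.11, adjusted p = 0.0452) or wild-type male 2 (0.62 ± 0.11, adjusted p = 0.0476). The calls with the block are given neither with the choroid plexus covariate nor without wild-type females 1 and 2. The choroid plexus covariate entered the fit without the block with a slope shared by both assays, so it largely cancels in the ratio. The part of choroid plexus tissue in the ratio was therefore not tested by it. With the choroid plexus level as a covariate in the fit without the block, the differences were 0.61 for Selenop (adjusted p = 0.0779), 0.79 for Selenof (adjusted p = 0.241) and −0.65 for Selenom (adjusted p = 0.195). Without wild-type females 1 and 2, also without the block, they were 0.45 ± 0.19, 0.79 ± 0.43 and −0.74 ± 0.30 for Selenop, Selenof and Selenom (edgeR adjusted p = 0.871 each).

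In males no member passed without the block (0% of genes called) or with it (0.00707%), and no member had an unadjusted p under 0.05 without it. The differences were 0.01 ± 0.15 for Selenop, 0.30 ± 0.34 for Selenof and −0.25 ± 0.23 for Selenom (edgeR adjusted p = 1 each). With the block, the female difference exceeded the male difference by 0.61 ± 0.15 for Selenop, which did not pass after adjustment (unadjusted p = 0.000602, adjusted p = 0.774). With both sexes together and the block, Selenop (0.31 ± 0.08, adjusted p = 0.0531), Selenof (0.53 ± 0.14, adjusted p = 0.0565) and Selenom (−0.47 ± 0.13, adjusted p = 0.0736) missed the threshold. Of the other 7 members none passed in any of these fits. The share of codons read by queuosine tRNAs was 8.64% in Selenof, at percentile 5.58 of 21696 genes, 13.8% in Selenom, at percentile 51.8, and 17.1% in Selenop, at percentile 87.9.

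Males differed from females in more members than knockouts from wild types. In footprints 5 of 10 members were called, all higher in males, where 29.9% of genes were called and 14.7% as higher. They were Selenof (1.16 ± 0.18, edgeR adjusted p = 0.000572), Selenop (0.80 ± 0.08, adjusted p = 6.14e-05), Selenom (0.51 ± 0.14, adjusted p = 0.0137), Gpx4 (0.47 ± 0.12, adjusted p = 0.0102) and Txnrd1 (0.46 ± 0.09, adjusted p = 0.00242). Selenop footprints were 198 to 232 CPM in the 4 males and 90.5 to 177 CPM in the 6 females, and Txnrd1 footprints 115 to 153 CPM in males and 78.7 to 105 CPM in females. Those 2 genes did not overlap between the sexes, and the other 3 did. The share of all genes without overlap between the sexes was not computed. Markers of neighbouring tissue and of cell types moved with sex as well. In footprints 8 of 9 striatum markers were called lower in males (median −1.53) and 5 of 8 oligodendrocyte markers were called higher (median 0.52). All 12 choroid plexus markers had higher fitted levels in males (median 1.15, 3 called), and 3 of 8 hippocampal neuron markers were called higher (median 0.29). The part of the striatum, oligodendrocyte and neuron markers in the members' sex difference was not tested. With the choroid plexus level as a covariate Selenof and Selenop still passed, while Selenom (0.55 ± 0.20, adjusted p = 0.0846), Gpx4 (0.31 ± 0.15, adjusted p = 0.205) and Txnrd1 (0.34 ± 0.12, adjusted p = 0.0804) did not. Without wild-type females 1 and 2, Selenom (0.51 ± 0.18, adjusted p = 0.0685) and Gpx4 (0.43 ± 0.15, adjusted p = 0.0771) missed the threshold. Without knockout male 1, Selenom (0.32 ± 0.13, adjusted p = 0.113) and Gpx4 (0.39 ± 0.14, adjusted p = 0.0704) missed it as well.

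In input RNA 6 members were called, again all higher in males, against 20.1% of all genes called and 8.83% called as higher. These were Gpx4 (0.48 ± 0.06), Selenof (0.43 ± 0.06), Selenom (0.42 ± 0.06), Selenot (0.32 ± 0.04), Selenow (0.26 ± 0.06) and Selenop (0.15 ± 0.05), with edgeR adjusted p between 0.000382 and 0.0485. Gpx4 input was 99.5 to 104 CPM in males and 65.5 to 79.3 CPM in females, without overlap. Selenof, Selenom and Selenot did not overlap either, at 122 to 143, 51.7 to 59.0 and 129 to 143 CPM in males against 82.4 to 113, 37.0 to 47.7 and 100 to 124 CPM in females. For input RNA too, the share of all genes without overlap between the sexes was not computed. The Selenop call was lost under 14 of 15 alternatives, with adjusted p up to 0.174, and Selenow was lost without knockout male 1 (0.25 ± 0.07, adjusted p = 0.0517). Sex and age cannot be told apart here.

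The authors' tables of footprints per codon, which leave out the first codons of each mRNA, gave a view along the coding sequence for 1 member only. Selenow had 239 to 965 listed footprints per library, 4016 in all, spread over 58 codons between codons 18 and 83. Its UGA is codon 13, so every listed codon lies past the selenocysteine. The stretch from codon 10 to codon 42 is shown (chromosome 7, minus strand, GRCm38), with the UGA and the 3 codons with the most footprints in capitals.
Selenow: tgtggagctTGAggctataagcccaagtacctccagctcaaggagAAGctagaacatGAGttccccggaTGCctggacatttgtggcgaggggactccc
Codon 25 (AAG) held 14.6% of the footprints, codon 33 (UGC) 11.7% and codon 29 (GAG) 8.57%, together 34.9%. Codons read by queuosine tRNAs held 4.95% ± 0.832 of the Selenow footprints in knockout females and 4.59% ± 1.38 in wild-type females (SD, n = 3 each), a difference within the spread. In males they held 5.55% ± 0.410 in knockouts and 5.27% ± 1.44 in wild types (SD, n = 2 each).

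**Figure D5:**
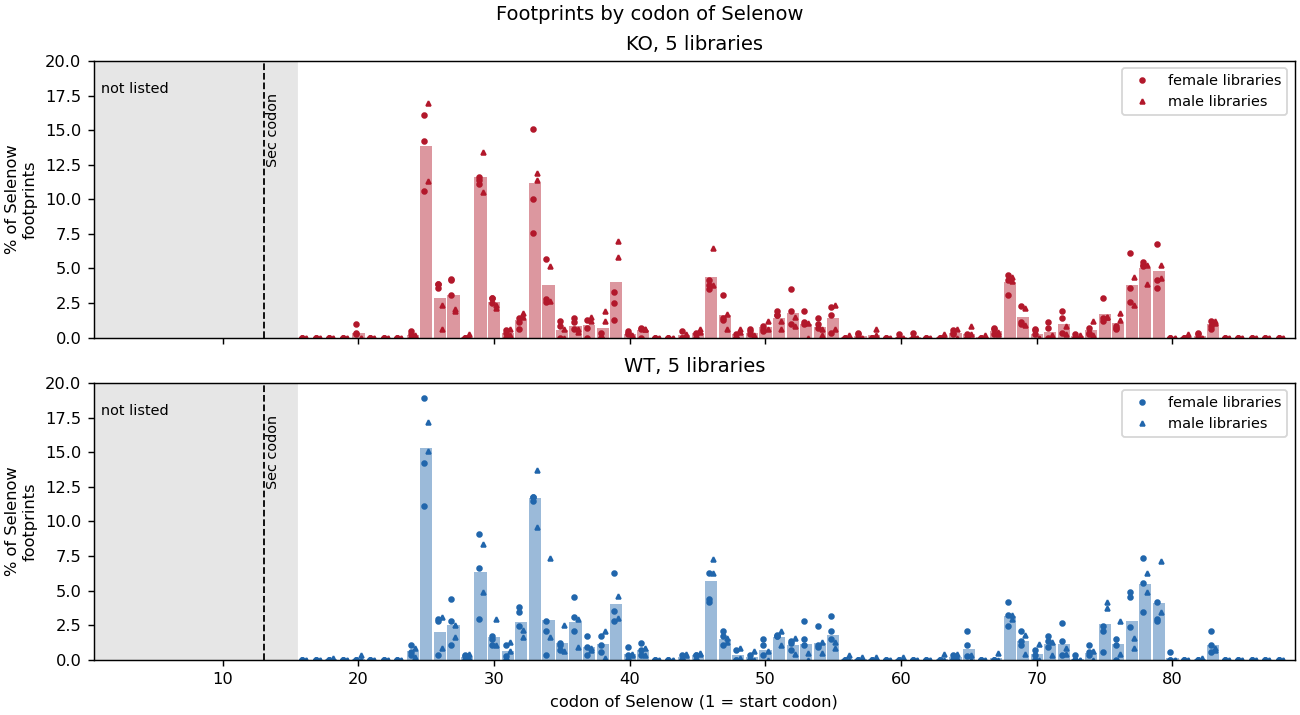
Share of Selenow footprints at each codon in percent, knockout above wild type, with bars for the mean over the 5 animals of each genotype and points for single animals (circles females, triangles males). The codon number counts from the start codon, grey marks the first codons, which the tables leave out, and a dashed line marks the selenocysteine codon 13. Codons past the grey that the tables do not list are drawn at 0. Codon 25 is high in both genotypes, and codon 29 is higher in knockouts.

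Codon 29 was singled out after its values were seen and is given without a test. It held 11.6%, 11.4% and 11.1% of the Selenow footprints in knockout females, against 9.06%, 6.60% and 2.95% in wild-type females. In males it held 13.4% and 10.5% in knockouts, against 4.87% and 8.37% in wild types. All 5 knockout animals lay above all 5 wild-type animals. Of the 58 listed codons this was the 1 whose shares did not overlap between the genotypes, and at the other 57 they overlapped. Several of those 57 held too few footprints to separate the genotypes. Codons 18, 61, 66 and 81, for example, had 1 footprint each over all libraries. Codon 25 overlapped, at 10.6% to 17.0% in knockouts and 11.1% to 18.9% in wild types. Selenow held 188 to 248 CPM of all listed footprints in knockout females and 222 to 254 CPM in wild-type females. It held 293 to 312 CPM in knockout males and 223 to 318 CPM in wild-type males.

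The other members were nearly absent from the codon tables. Selenot had 323 footprints on 12 codons between 155 and 181, Selenom 91 on 7 codons between 64 and 71, Gpx4 56 on 1 transcript and 5 on another, and Txnrd1 had 1. Selenop, Gpx1, Txnrd2, Selenok and Selenof had none, although the count table held their footprints in every library. The sources used here do not say how mRNAs or codons were selected for those tables. Footprint density after the UGA relative to before it could therefore not be computed for any of the 10 members.

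Of 13 genes for making and inserting selenocysteine tested in female footprints, 1 was called, a share near the 7.06% of all genes called there, of which 4.25% as lower. It was Secisbp2l, a relative of the SECIS binding protein, at a mean of 96.0 CPM in knockout females and 122 CPM in wild-type females (−0.35 ± 0.09, edgeR adjusted p = 0.0427). The median of the list was −0.024. In input RNA, where 2.73% of all genes were called as lower, 1 of the 13 was called, the nucleolar protein gene Ncl, lower in knockout females (−0.35 ± 0.06, adjusted p = 0.0179). Of the 3 Selenop receptors, 1 was called, as Lrp1 footprints were lower in knockout females, with a mean of 1510 CPM in knockouts and 2010 CPM in wild types (−0.42 ± 0.11, adjusted p = 0.0394). Lrp8, the main neuronal receptor, differed by −0.18 ± 0.12 (adjusted p = 0.381), and Lrp2 by 0.26 ± 0.50 (adjusted p = 0.779). Of the other selenoprotein genes 11 could be tested, and none was called in female footprints (median −0.099). In input RNA 1 of the 11 was called. Dio2, the deiodinase that activates thyroid hormone, was lower in knockout females, with a mean of 35.3 CPM in knockouts and 46.9 CPM in wild types (−0.41 ± 0.09, adjusted p = 0.0402). With the choroid plexus level as a covariate none of these 4 calls held, with differences of −0.27 ± 0.13 for Secisbp2l (edgeR adjusted p = 0.377), −0.42 ± 0.16 for Lrp1 (0.252), −0.33 ± 0.09 for Ncl (0.123) and −0.49 ± 0.12 for Dio2 (0.0989). Without wild-type females 1 and 2 Dio2 held (−0.54 ± 0.13, adjusted p = 0.043), while Secisbp2l (−0.27, adjusted p = 0.438), Lrp1 (−0.33, adjusted p = 0.375) and Ncl (−0.32, adjusted p = 0.0852) did not.

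Among partner enzymes, 1 of 11 thioredoxin and peroxiredoxin genes rose in footprints of knockout females, the thioredoxin inhibitor Txnip, with a mean of 32.2 CPM in knockouts and 22.2 CPM in wild types (0.53 ± 0.15, edgeR adjusted p = 0.0445). Over all genes 2.81% were called as higher. None of 9 glutathione genes (median 0.18) and none of 6 genes of the oxidative stress regulator NRF2 and its targets (median 0.12) was called. Of 5 relatives with cysteine in place of selenocysteine, Gpx8, an enzyme of the endoplasmic reticulum, rose with a mean of 19.2 CPM in knockout females and 8.83 CPM in wild-type females (1.10 ± 0.24, adjusted p = 0.019). Its input RNA rose too, with a mean of 8.97 CPM in knockout females and 3.68 CPM in wild-type females (1.29 ± 0.32, adjusted p = 0.0465). Gpx6, with few counts, fell, with a mean of 0.730 CPM in knockout females and 4.12 CPM in wild-type females (−2.50 ± 0.68, adjusted p = 0.0476). The choroid plexus, meningeal and striatum marker levels given above differed between the same groups, and their part in these differences was not tested beyond the following values. With the choroid plexus covariate the footprint differences were 0.81 ± 0.20 for Txnip (edgeR adjusted p = 0.0876), 0.56 ± 0.22 for Gpx8 (adjusted p = 0.284) and −2.28 ± 0.89 for Gpx6 (adjusted p = 0.277). That of Gpx8 in input RNA was 0.53 ± 0.29 (adjusted p = 0.434). Without wild-type females 1 and 2 they were 0.90 ± 0.20 for Txnip (adjusted p = 0.0524), 0.60 ± 0.27 for Gpx8 (adjusted p = 0.336) and −2.31 ± 0.66 for Gpx6 (adjusted p = 0.14), and 0.81 ± 0.41 for Gpx8 in input RNA (adjusted p = 0.365). No gene of these lists was called in males.

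The genes whose footprint levels ran most like those of Selenop over the 10 libraries were Bambi (Pearson r = 0.987), Glo1 (0.984) and Tmem179b (0.979). For Selenof they were Rplp1 (0.986), Gadd45g (0.973) and Ndufa1 (0.973). In input RNA the genes most like Selenot were Ndufb11 (0.982), Snrpd2 (0.982) and Pfdn1 (0.981). These are the highest among 13142 genes in footprints and 14163 in input RNA, on log2 CPM, over libraries that share the sex difference and the depth, and they are given as a description.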

How the data were processed

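Ribosome footprints and input RNA of 10 animals were sequenced, and the authors deposited raw counts per gene symbol and, for footprints, counts per codon of an mRNA. The submitters' processing notes name SAMtools 0.1.19, Bowtie 1.2.2, Bowtie 1.0.0, Trimmomatic 0.39 and cutadapt 1.8.1, with no roles. The sources used here do not give the counter, its use of strand, read collapsing or the genome build. Gene positions and coding lengths come from GENCODE M21 (GRCm38). The codon tables count the start codon as 0, so 1 was added, and the codon letters of all 58 listed Selenow codons then matched the annotation.

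Counts were tested with edgeR 4.0.16 in R 4.3.3 (TMM normalization, filterByExpr on the 4 groups of sex and genotype, quasi-likelihood F tests, Benjamini-Hochberg adjustment over all genes, calls at an adjusted p under 0.05). Each assay was fitted on its 10 libraries, and the ratio as an interaction of assay and genotype on all 20. For the ratio the filter used the groups of sex, genotype and assay. CPM values use TMM library sizes. Between libraries of a group, chi-square over its degrees of freedom was 3.45 to 14.3, above the value near 1 that counting error gives. The steps were tested on simulated counts. Alternatives were DESeq2 1.42.0, its size factors in edgeR, no filter, a choroid plexus covariate, blocks, and leaving out animals. Correlations used log2 CPM with a prior count of 2.

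Footprint and input libraries of 1 animal come from 1 lysate per the labels' protocols, and their deviations from group means correlated at 0.257 to 0.548, so the animal pairs them. The rule for the members names genes and uses no measured value, but members, lists, tests and alternatives were chosen with earlier results of these data known. Named were all members, list genes called between genotypes or highest in input RNA, and per called member the 3 genes of highest Pearson r. Enrichment tables around each codon were not used.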

Additional observations from a re-analysis of the deposited data

How the results depend on the processing

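The number of members called in female footprints (2) fell to 0 with the choroid plexus covariate and without wild-type females 1 and 2, and was 0 to 2 when 1 animal was left out. With both sexes it was 0, against 1 by DESeq2, 2 without the filter and 0 to 1 with 1 animal left out. For female input RNA it was 1, against 0 with the covariate, 0 without wild-type females 1 and 2, and 0 to 1 with 1 animal left out. For the female ratio it was 0, against 1 by DESeq2, 3 with the animal as a replicate block, and 0 to 1 with 1 animal left out. For males against females in footprints it was 5, against 2 with the covariate, 3 without wild-type females 1 and 2, and 3 to 6 with 1 animal left out. Some male differences changed sign with 1 animal left out. Selenop footprints ran from −0.066 (without wild-type male 1) to 0.18 and were at −0.011 without knockout male 2, and Selenof footprints ran from −0.113 (without knockout male 2) to 0.895. Male ratios ran from −0.012 (without knockout male 2) to 0.033 for Selenop and from −0.255 (without knockout male 2) to 0.692 for Selenof. The cause was not tested.

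Same-numbered knockout and wild-type animals share a number and, apart from females 1, an age, per the labels. Their deviations correlated at −0.207 to −0.0779 in footprints and −0.21 to 0.0944 in input RNA. With that number as a replicate block Selenop (0.71) and Selenof (1.01) remained called in female footprints, and 0 members were called in female input RNA, where Selenot had an edgeR adjusted p of 0.0945. Over all genes the calls in female footprints numbered 928, 308 with the block, 57 with the covariate, 120 without wild-type females 1 and 2, and 37 to 1545 with 1 animal left out. In female input RNA they numbered 493, 324 with the block, 29 with the covariate, and 4 to 1030 with 1 animal left out. For the female ratio they numbered 6, 394 with the animal block, 136 by DESeq2 and 0 to 21 with 1 animal left out. Selenok and Txnrd2, at 34 to 166 and 36 to 124 footprint counts per library, limit what could be detected.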

Other observations

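Selenoprotein mRNAs outside the 10 genes did have footprints on both sides of the UGA in the codon tables, and are given as values without a test. Sephs2, which makes the selenium donor for selenocysteine and is itself a selenoprotein, had 2048 listed footprints, of which 36 lay on its UGA at codon 63. Densities here divide by annotated codons, listed or not, apart from the first codons that the tables omit. Of 452 Sephs2 codons 165 were listed. Footprints per codon after the UGA relative to before it were 0.118 to 0.17 in knockout males and 0.0893 to 0.154 in wild-type males. In females they were 0.259 to 0.665 in knockouts and 0.299 to 0.377 in wild types. The 4 males thus lay below the 6 females. Codon 58 (UCC), shortly before the UGA and chosen after its values were seen, was the codon with the most Sephs2 footprints in each of the 4 males, with 13.3% to 20% of them, and held 2.99% to 10.6% in females. Selenon, a selenoprotein of the endoplasmic reticulum with its UGA at codon 428, had 1571 footprints, 16 of them on the UGA. Its density after relative to before the UGA was 0 to 0.0882 in the 5 knockout animals and 0.0893 to 0.157 in the 5 wild-type animals, without overlap but on 0 to 8 footprints after the UGA per library. Of 557 Selenon codons 169 were listed, none past codon 465, and the part of this in the low densities was not tested. Dio2, with its first UGA at codon 130, had a relative density of 0.509 to 0.809 in knockout animals and 0.37 to 0.811 in wild-type animals.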
